A study of Mus musculus with 19 samples.

Results

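The 8 genes described here encode coregulators of steroid receptors, and nuclear receptors and a hormone-responsive gene of the same signalling system: Ncoa1, Ncoa2, Ncoa3, Ncor1, Nrip1, Rara, Nr2c1 and Greb1. They were chosen by symbol, with earlier results of these data known, and each matched 1 of the 21749 genes measured. All 8 passed the filter on low values, as did 20644 genes in all. Messenger RNA on ribosomes of mouse cortical astrocytes was sequenced after translating ribosome affinity purification (TRAP), in which tagged ribosomes are pulled down from a tissue lysate. All 19 libraries came from mice on a mixed B6;FVB background that carry the Aldh1l1-EGFP/Rpl10a transgene, a tagged ribosomal protein under control of the astrocyte gene Aldh1l1. No library without the transgene was analysed here.

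The groups were 4 libraries from males and 15 from females, with 8 in metestrus, 3 in proestrus (labelled Pro-Day) and 4 in estrus. Females were collected at 09:00. The sources used here do not give the collection hour of the males, the ages or the number of animals behind a library. The labels name batches 2, 3 and 4, without saying what they are. In batch 2 there were 3 estrus, 2 proestrus and 2 metestrus libraries. A single library of each stage made up batch 3, and the 4 males and the 5 remaining metestrus libraries made up batch 4. Fold changes between the stages therefore rest on batches 2 and 3, and those of males over metestrus on batch 4. Ranges are compared over all libraries of a group, so those of metestrus against proestrus or estrus also cross batches. Replicate numbers are names given in the order of deposit.

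The values are the authors' deposited log2 expression values, from which sequencing depth cannot be read. No scaling by gene length is stated for them, so levels are compared between libraries for 1 gene and not between genes. The 22 astrocyte markers examined were all among the genes tested. Their summed level, the log2 of the sum of their values taken off the log scale, was 18.93 to 19.44 in males, 18.74 to 19.23 in metestrus, 18.92 to 18.98 in proestrus and 18.63 to 19.16 in estrus. All 18 neuron markers were tested as well, with summed levels of 16.76 to 17.52 over the 19 libraries, and unpurified tissue was not analysed here. The levels below can therefore not be assigned to astrocytes alone, and fewer cells of a type cannot be told apart from less RNA per cell.

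Steroid receptors are transcription factors that bind a hormone and then DNA. A bound agonist exposes a surface to which coactivators attach through short leucine-rich motifs, and the coactivators bring enzymes that acetylate and methylate histones. Corepressors bind receptors without an agonist, or with an antagonist, and bring histone deacetylases. Retinoid and orphan receptors draw on the same coregulators, and astrocytes are among the brain cells in which estrogen receptors have been described.

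The upstream promoters were examined for letters known from the binding sites of these receptors, and separately for the GC box of the factor Sp1. RefSeq windows of 250 bases before a transcription start (GRCm38.p6) were found for 6 of the 8 genes, 12 windows in all, with Ncoa2 and Ncoa3 not matched. The 3 windows shown belong to the gene that passed the threshold below, Nr2c1, and to the retinoid- and estrogen-linked genes Rara (the first of 4 windows) and Greb1 (the first of 2). They are printed 5′ to 3′ on the strand of the gene, with capitals marking GC boxes in Rara and the single receptor site AGGTCA in Greb1.
Nr2c1, chr10:94147681-94147930, plus strand: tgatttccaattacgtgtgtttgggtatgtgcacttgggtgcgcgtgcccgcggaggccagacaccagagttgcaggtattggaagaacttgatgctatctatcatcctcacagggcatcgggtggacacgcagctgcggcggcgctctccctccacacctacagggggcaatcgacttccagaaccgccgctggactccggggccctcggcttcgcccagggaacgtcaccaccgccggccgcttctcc
Rara, chr11:98937446-98937695, plus strand: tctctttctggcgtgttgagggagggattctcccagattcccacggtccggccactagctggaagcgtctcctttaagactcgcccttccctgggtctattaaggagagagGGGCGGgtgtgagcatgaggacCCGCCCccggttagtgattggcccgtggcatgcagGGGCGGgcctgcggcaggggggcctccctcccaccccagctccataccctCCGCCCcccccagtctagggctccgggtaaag
Greb1, chr12:16800887-16801136, minus strand: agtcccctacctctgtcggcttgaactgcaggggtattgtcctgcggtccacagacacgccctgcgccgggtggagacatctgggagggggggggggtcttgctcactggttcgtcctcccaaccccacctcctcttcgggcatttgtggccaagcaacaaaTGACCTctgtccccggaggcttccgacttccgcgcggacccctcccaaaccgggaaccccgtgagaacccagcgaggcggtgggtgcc

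Both strands were searched, and a longer motif also counts towards a shorter one inside it. The palindromic estrogen response element GGTCANNNTGACC was in 0 of the 12 windows and in 0.0639% of all 32851 RefSeq windows of this length. The single site AGGTCA was in 1 of the 12, the Greb1 window at -88 from the start on the opposite strand, and in 14% of all windows. The direct repeats AGGTCANAGGTCA and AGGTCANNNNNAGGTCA, a spacing known from retinoic acid response elements, were in 0 of the 12 windows and in 0.0335% and 0.00913% of all. The Sp1 GC box GGGCGG was in 6 of the 12 windows, 4 times in the Rara window shown, and in 32.7% of all. Windows 1 and 2 of Rara overlap and hold the same 4 GC boxes, so these sites count in both windows. The Nr2c1 window held none of these motifs. These matches describe letters and not binding.

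Among the coactivators, Ncoa3 was the gene whose level differed most between the groups, with its highest values in proestrus. Ncoa3 (ENSMUSG00000027678.19) encodes steroid receptor coactivator 3, a histone acetyltransferase partner of estrogen receptor alpha first found amplified in breast cancer. Its log2 value was 7.77, 7.98, 7.63 and 7.30 in the male libraries, and in metestrus it ran from 7.85 through a median of 8.005 to 8.40. It was 8.92, 8.79 and 8.83 in proestrus, and 7.56, 7.67, 8.16 and 8.29 in estrus. All 3 proestrus libraries lay above each of the other 16, while the males overlapped metestrus and estrus. Proestrus libraries lay above all metestrus libraries for 3.3% of all genes, above all estrus libraries for 4.64% and above all males for 7.97%. The share above all other groups at once was not counted. The order of the means was proestrus, metestrus, estrus and males, and only the step between proestrus and metestrus was free of overlap.

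Ncoa1 and Ncoa2 showed no such separation. Ncoa1 (ENSMUSG00000020647.11), steroid receptor coactivator 1, was 11.93, 11.72, 11.64 and 11.91 in males and 11.32 to 12.01 (median 11.71) in metestrus. It was 11.77, 11.53 and 11.80 in proestrus, and 11.56, 11.14, 11.75 and 11.47 in estrus. The ranges of all 4 groups overlapped. Ncoa2 (ENSMUSG00000005886.15), a coactivator shared by estrogen, androgen and glucocorticoid receptors, was 9.55, 9.44, 9.75 and 10.04 in males and 9.48 to 9.81 (median 9.68) in metestrus. It was 9.80, 10.16 and 9.44 in proestrus, and 9.86, 9.93, 9.90 and 9.79 in estrus. The 4 estrus libraries were close together, and the proestrus values of Ncoa2 ran from below them to above them.

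The corepressors overlapped between all groups. Ncor1 (ENSMUSG00000018501.18), a scaffold that links receptors to histone deacetylase, was 12.74, 12.20, 12.62 and 12.84 in males and 11.999 to 12.62 (median 12.40) in metestrus. It was 12.31, 12.35 and 12.40 in proestrus, and 12.65, 11.91, 12.25 and 12.33 in estrus. Proestrus was the tightest group, and estrus and males spread widely around it. Nrip1 (ENSMUSG00000048490.15), also called RIP140, competes with coactivators for hormone-bound receptors and is itself induced by estrogen in several tissues. Its value was 9.92, 10.12, 9.71 and 10.05 in males and 9.38 to 9.90 (median 9.80) in metestrus. It was 10.05, 9.86 and 9.61 in proestrus, and 9.73, 9.45, 9.39 and 9.52 in estrus. Of the 4 male libraries, 3 lay above every estrus library, and the ranges overlapped by a single value.

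Of the 2 receptor genes, Rara (ENSMUSG00000037992.17), the retinoic acid receptor alpha, is a ligand-activated factor whose transcription is raised by estrogen in breast cancer cells. Its value was 9.48, 8.99, 9.30 and 9.42 in males and 8.45 to 8.88 (median 8.58) in metestrus. It was 8.61, 8.91 and 8.01 in proestrus, and 7.75, 8.24, 7.23 and 7.98 in estrus. All males lay above all females. Males lay above all metestrus libraries for 0.853% of all genes, above all proestrus libraries for 13.2% and above all estrus libraries for 7.45%. The share above all females at once was not counted. All estrus libraries of Rara lay below all metestrus libraries, as for 2.31% of all genes. The proestrus libraries of Rara reached into both female groups. Nr2c1 (ENSMUSG00000005897.15), the orphan receptor TR2, binds direct repeats of the receptor site and represses or activates depending on its partners. The value of Nr2c1 was 6.35, 6.04, 7.67 and 6.26 in males and 6.19 to 7.13 (median 6.62) in metestrus. It was 7.08, 7.06 and 8.29 in proestrus, and 5.36, 6.18, 5.65 and 5.70 in estrus. All estrus libraries lay below all proestrus libraries, as for 4.64% of all genes. They also lay just below all metestrus libraries, as for 2.31%, with 6.18 as the highest estrus and 6.19 as the lowest metestrus value.

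Greb1 (ENSMUSG00000036523.17), a chromatin-bound cofactor of estrogen receptor alpha and one of its best known targets in breast cancer cells, varied most within a group. Its value was 7.03, 6.42, 6.76 and 6.46 in males and 5.55 to 6.82 (median 6.30) in metestrus. It was 6.44, 5.95 and 6.32 in proestrus, and 6.33, 5.58, 5.28 and 4.08 in estrus. The estrus libraries ran from a value inside the proestrus range down to the lowest value of all 19, in the 1 estrus library of batch 3. All males lay above all estrus libraries, as for 7.45% of all genes.

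**Figure D1:**
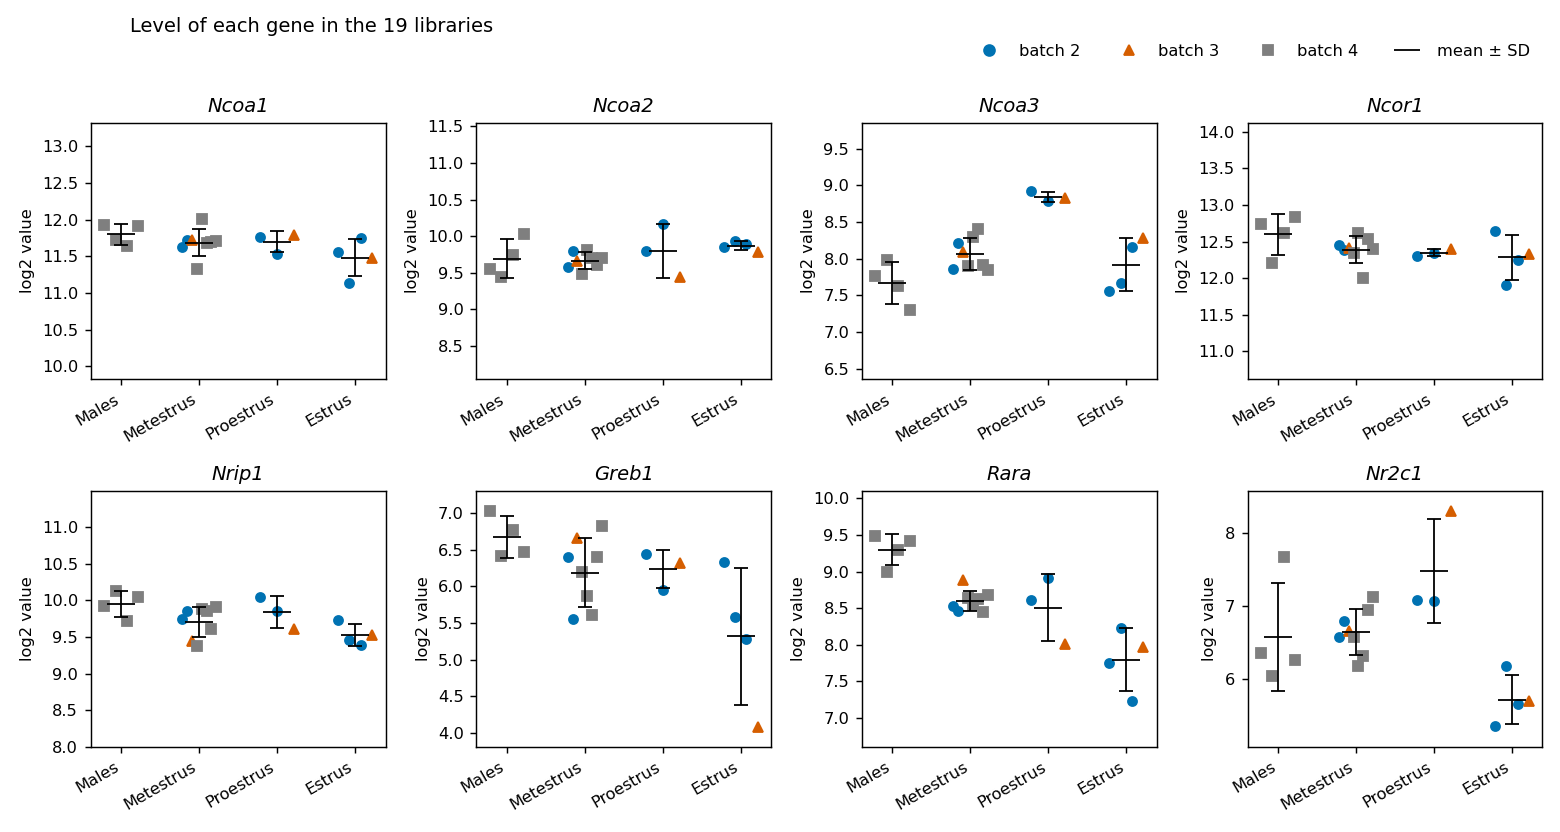
Deposited log2 value (vertical axis, the same span of 3.5 units in every panel) of each gene in the 19 libraries, by group (horizontal axis), with symbols for the batch and black bars for the group mean ± SD. Ncoa3 sits at 8.79 to 8.92 in the 3 proestrus libraries, Rara is highest in males and lowest in estrus, and Nr2c1 is lowest in estrus.

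In estrus compared with proestrus, the stages on either side of the preovulatory surge, 7 of the 8 genes had a negative fold change and 1 of them, Nr2c1, passed the threshold. The fits used limma with group and batch, and p-values were adjusted over all 20644 genes. The mean level of Nr2c1 was 5.72 ± 0.34 in the estrus libraries (SD, n = 4) and 7.48 ± 0.71 in the proestrus libraries (SD, n = 3), a 3.31-fold lower level in estrus (log2 fold change -1.73 ± 0.40 SE, 95% interval -2.56 to -0.89, limma adjusted p = 0.0402). Of all genes, 0.344% were called lower in estrus. Within batch 2 the difference was -1.34 (3 estrus and 2 proestrus libraries), and within batch 3 it was -2.596 (1 library each). The call was lost once the directions of variation missing from the deposited values were counted (adjusted p = 0.110), and it held in 6 of the 15 fits tried. Leaving out the highest proestrus library, Proestrus replicate 3, gave -1.34 with an adjusted p of 0.135.

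**Figure D2:**
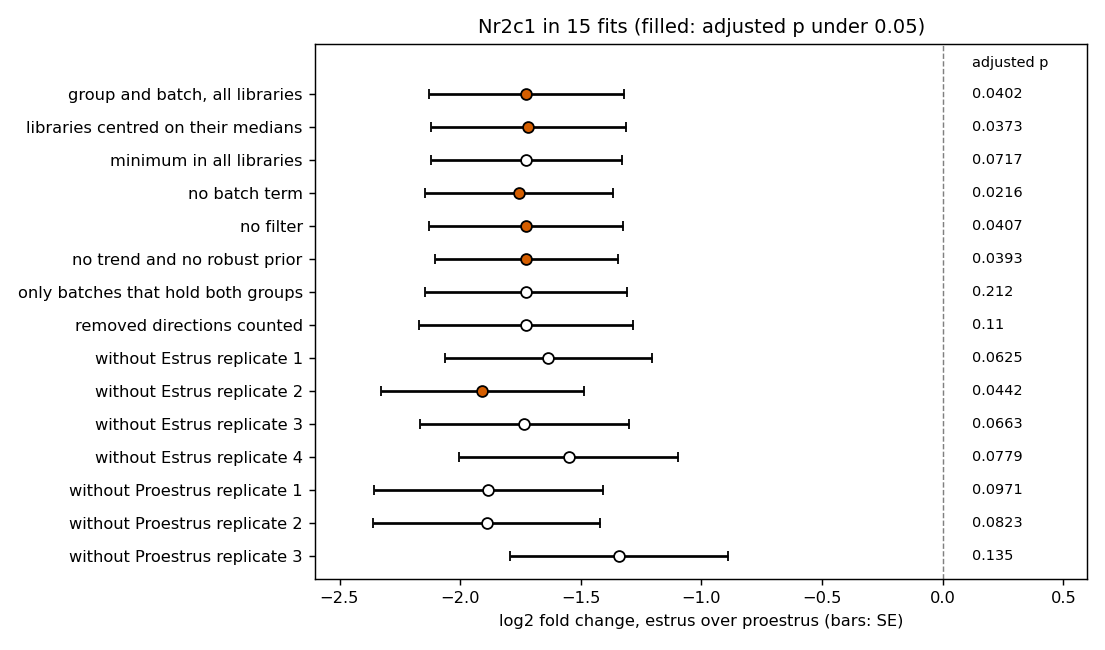
Log2 fold change of Nr2c1 in estrus over proestrus (horizontal axis, bars show the SE) in 15 fits (vertical axis), with the adjusted p at the right and filled points where it was under 0.05. Every fit gave a negative value, from -1.91 to -1.34, and 6 of the 15 passed the threshold.

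Ncoa3 averaged 7.92 ± 0.36 in 4 estrus libraries and 8.85 ± 0.07 (SD) in 3 proestrus libraries. Its log2 fold change was -0.91 ± 0.24 (SE, 95% interval -1.41 to -0.41), and with a limma adjusted p of 0.0664 it did not pass. Both batches gave a negative difference, -1.06 in batch 2 and -0.54 in batch 3. Rara averaged 7.80 ± 0.43 in estrus and 8.51 ± 0.46 in proestrus, with a fold change of -0.71 ± 0.25 (SE, limma adjusted p = 0.168). Its difference was -1.02 in batch 2 and -0.03 in batch 3, so the batches were unlike. Greb1 averaged 5.32 ± 0.94 in estrus and 6.24 ± 0.26 in proestrus, with a fold change of -0.95 ± 0.46 (SE, limma adjusted p = 0.346). Here the larger difference was in batch 3, -2.24 against -0.47 in batch 2, and without Estrus replicate 4 the fold change was -0.37.

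The other 4 genes had fold changes between -0.33 and 0.05 in estrus over proestrus, the lowest in Nrip1 (95% interval -0.70 to 0.03) and the highest in Ncoa2 (-0.32 to 0.42). An unadjusted p under 0.05 was found for 4 of the 8 genes, Ncoa3, Greb1, Rara and Nr2c1, against 14.5% of all genes. Ranges did not overlap for Ncoa3 and Nr2c1, both lower in estrus, and 4.64% of all genes were lower in this way. The median fold change of the 8 genes was -0.52, and that of all genes 0.02. As the 8 genes were chosen with earlier results of these data known, these shares and medians are no test of the set.

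Markers of other cell types differed between the same estrus and proestrus libraries. Of 14 endothelial and mural markers, 13 had a negative fold change, and their summed level was 10.44 to 10.54 in estrus and 10.83 to 11.12 in proestrus, without overlap. Of 12 choroid plexus and ependymal markers, 9 had a positive fold change, with summed levels of 10.66 to 10.84 in estrus and 9.96 to 10.64 in proestrus. These sums did not overlap either. None of the markers in these lists passed the threshold in limma, and 4 of each had an unadjusted p under 0.05. Mean levels under the filter minimum of 3.32 were found for 2 of the 14 endothelial and mural markers in estrus and 1 in proestrus, and for 1 of the 12 choroid plexus and ependymal markers in each stage. Their part in the lower levels of Nr2c1 and Ncoa3 was not tested.

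In proestrus compared with metestrus none of the 8 genes passed the threshold in limma, and 1 had an unadjusted p under 0.05. Among all genes, 0.988% passed and 13.1% had an unadjusted p under 0.05. The gene was Ncoa3, which averaged 8.85 ± 0.07 in proestrus (SD, n = 3) and 8.07 ± 0.22 in metestrus (SD, n = 8). On the log2 scale the fold change was 0.79 ± 0.26 (SE, 95% interval 0.25 to 1.33, limma adjusted p = 0.166), with differences of 0.82 in batch 2 and 0.73 in batch 3. Its ranges did not overlap, as was the case for 3.3% of all genes in this direction. These ranges include the 5 metestrus libraries of batch 4, which held no proestrus library. Nr2c1 had a fold change of the same size with a wider error, 0.80 ± 0.43 (SE, limma adjusted p = 0.443), and its difference was 0.39 in batch 2 and 1.64 in batch 3, with 0.39 left without Proestrus replicate 3. The other 6 genes had fold changes of -0.12 to 0.16. For Greb1 the 95% interval was -0.98 to 1.04, the widest of the 8. The median fold change was 0.08 for the 8 genes and -0.09 for all genes. Of 12 choroid plexus and ependymal markers 10 had a negative fold change, 3 with an unadjusted p under 0.05 and none past the threshold in limma, with overlapping summed levels. Of 14 endothelial and mural markers 8 had a positive fold change, 3 with an unadjusted p under 0.05 and none past the threshold in limma, again with overlapping sums. The part of either list in the level of Ncoa3 was not tested.

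Estrus compared with metestrus gave lower means for 7 of the 8 genes. None passed the threshold in limma, as against 0.0872% of all genes, and 2 had an unadjusted p under 0.05, against 11.3% of all genes. Rara averaged 7.80 ± 0.43 in estrus (SD, n = 4) and 8.60 ± 0.14 in metestrus (SD, n = 8). Its fitted fold change, which rests on batches 2 and 3, was -0.83 ± 0.25 on the log2 scale (SE, 95% interval -1.35 to -0.31, limma adjusted p = 0.202). The difference was -0.76 in batch 2 and -0.90 in batch 3. Nr2c1 averaged 5.72 ± 0.34 in estrus and 6.65 ± 0.31 in metestrus, a fold change of -0.92 ± 0.40 (SE, limma adjusted p = 0.398), with a difference of -0.96 in each batch. The ranges of both genes did not overlap, which 2.31% of all genes showed in this direction. Stage and batch are mixed in these ranges, as 5 of the 8 metestrus libraries were in batch 4, which held no estrus library. Greb1 had a fold change of -0.91 ± 0.46 (SE, limma adjusted p = 0.455), with a difference of -0.25 in batch 2 and -2.58 in batch 3, and it was -0.34 without Estrus replicate 4. The remaining 5 genes lay between -0.21 and 0.17, and the medians were -0.19 for the 8 genes and -0.07 for all genes. Of 12 oligodendrocyte markers 11 had a positive fold change, with summed levels of 15.09 to 15.42 in estrus and 14.86 to 15.08 in metestrus, without overlap. None of them passed the threshold in limma and 4 had an unadjusted p under 0.05, while 9 of 14 endothelial and mural markers had a negative fold change (median -0.67), 2 with an unadjusted p under 0.05, none past the threshold in limma, and overlapping summed levels. The part of either list in the levels of Rara and Nr2c1 was not tested.

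Males compared with metestrus females differed most in Rara. None of the 8 genes passed the threshold in limma, 0.0242% of all genes did, and 1 of the 8 had an unadjusted p under 0.05, against 5.33% of all genes. Rara averaged 9.30 ± 0.22 in males (SD, n = 4) and 8.60 ± 0.14 in metestrus (SD, n = 8). The fold change on the log2 scale was 0.71 ± 0.22 (SE, 95% interval 0.26 to 1.17, limma adjusted p = 0.776). The ranges did not overlap, a pattern that 0.853% of all genes showed in this direction. Ncoa3 had a fold change of -0.40 ± 0.21 (SE, limma adjusted p = 0.959) and Greb1 of 0.49 ± 0.40 (SE, limma adjusted p = 0.983). The other 5 genes lay between -0.05 and 0.23, and the medians were 0.17 for the 8 genes and 0.04 for all genes. In the same males 17 of 22 astrocyte markers had a positive fold change, with 4 at an unadjusted p under 0.05 and overlapping summed levels, and 11 of 14 endothelial and mural markers did, with 3 at that level and overlapping sums. Their part in the level of Rara was not tested.

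As no batch held males together with proestrus or estrus libraries, fold changes between them are linked through metestrus. Rara had a log2 fold change of 1.54 ± 0.33 in males over estrus (SE, limma adjusted p = 0.115). Ncoa3 had a fold change of -1.19 ± 0.33 in males over proestrus (SE, limma adjusted p = 0.148). The ranges of males and estrus did not overlap for Rara and Greb1, both higher in males, as for 7.45% of all genes. Those of males and proestrus did not overlap for Rara, higher in males as were 13.2% of all genes, and for Ncoa3, lower in males as were 7.97%. Sex and batch cannot be told apart in these ranges. When any difference among the 4 groups was tested at once, none of the 8 genes passed the threshold in limma, whereas 131 of all genes (0.635%) did. The smallest adjusted p-values were 0.0764 for Rara, 0.127 for Ncoa3 and 0.131 for Nr2c1, the 3 genes with an unadjusted p under 0.05, which 13.9% of all genes had.

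**Figure D3:**
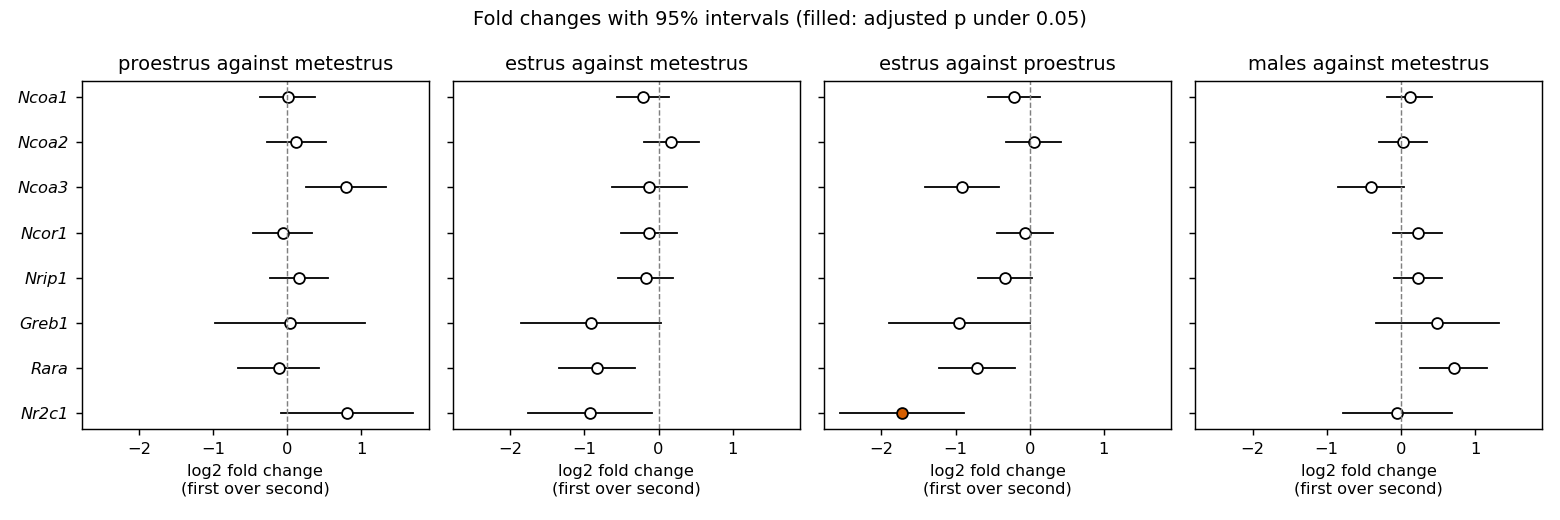
Log2 fold change with its 95% interval (horizontal axis) of the 8 genes (vertical axis) in 4 comparisons, first named group over second, filled where the adjusted p was under 0.05. Nr2c1 in estrus against proestrus, at -1.73, is the filled point, and the intervals of Ncoa1, Ncoa2, Ncor1 and Nrip1 cross 0 in all 4 comparisons.

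The 8 genes were set beside 5 lists of related genes, whose median fold changes lay between -0.10 and 0.18 over the 4 comparisons. For all genes, the share with an unadjusted p under 0.05 was 13.1% in proestrus and 11.3% in estrus against metestrus. It was 14.5% in estrus against proestrus and 5.33% in males against metestrus. Of the 30 other coactivators, none passed the threshold in limma in any of the 4 comparisons, and between 0 and 2 had an unadjusted p under 0.05. The smallest p-values were those of Ppargc1a, the coactivator of mitochondrial genes, at -0.58 ± 0.18 in proestrus over metestrus (SE, limma adjusted p = 0.128), and of the histone methyltransferase gene Kmt2d, at -0.80 ± 0.30 in estrus over proestrus (SE, limma adjusted p = 0.205). The 28 other corepressors tested gave no call in limma either, with 2 to 5 at an unadjusted p under 0.05. Zbtb16, a zinc finger repressor, had a fold change of -0.91 ± 0.27 in proestrus over metestrus (SE, limma adjusted p = 0.1205), and Ctbp2, a C-terminal binding protein, one of 0.46 ± 0.17 in males over metestrus (SE, limma adjusted p = 0.856).

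Among 36 estrogen-responsive genes tested, Esr1 was the 1 gene that passed the threshold. It passed in proestrus against metestrus, as did 204 of all 20644 genes (0.988%), 156 of them lower. It also passed in estrus against proestrus, as did 194 of the 20644, 123 of them higher. Esr1 encodes estrogen receptor alpha, to which Ncoa1, Ncoa2, Ncoa3, Nrip1 and Greb1 bind. It averaged 2.38 in proestrus and 6.26 in metestrus (log2 fold change -3.89 ± 0.69 SE, limma adjusted p = 0.00772), and 5.96 in estrus against 2.38 in proestrus (3.53 ± 0.64 SE, limma adjusted p = 0.00937). Its proestrus mean lay under the filter minimum of 3.32, so the size of these changes is uncertain. Neither call of Esr1 held when only batches 2 and 3 were fitted, and both held with the missing directions counted (limma adjusted p = 0.0277 and 0.0303). Pgr, the progesterone receptor gene and a classical estrogen target, averaged 9.09 in proestrus and 8.62 in metestrus (limma adjusted p = 0.441), and 8.51 in estrus against 9.09 in proestrus (limma adjusted p = 0.220). Pgr was picked after its values were seen. An unadjusted p under 0.05 was found for 4 of the 36 genes in proestrus and 4 in estrus against metestrus, where 13.1% and 11.3% of all genes had one. It was found for 5 in estrus against proestrus and 5 in males against metestrus, where 14.5% and 5.33% of all genes had one.

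In the retinoic acid pathway, where Rara belongs, none of the 20 genes tested passed the threshold in limma and 2 to 3 had an unadjusted p under 0.05. Crabp1, which binds retinoic acid in the cytoplasm, averaged 6.07 in estrus and 4.17 in metestrus (log2 fold change 1.88 ± 0.66 SE, limma adjusted p = 0.285). Rarb, a receptor gene that retinoic acid induces, averaged 8.33 in estrus and 7.52 in proestrus (0.76 ± 0.28 SE, limma adjusted p = 0.186), so its fold change and that of Rara had opposite signs. Of 29 other nuclear receptors tested, none passed in limma, and 3 to 5 had an unadjusted p under 0.05. Esrrg, the orphan estrogen-related receptor gamma, came closest at 1.84 ± 0.46 in estrus over proestrus (SE, limma adjusted p = 0.0518), followed by the oxysterol receptor gene Nr1h3 at 0.73 ± 0.22 (SE, limma adjusted p = 0.108). Nr2c2, the close relative with which Nr2c1 forms dimers, averaged 10.29 in estrus and 9.76 in proestrus (0.49 ± 0.26 SE, limma adjusted p = 0.394) and was picked after its values were seen.

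**Figure D4:**
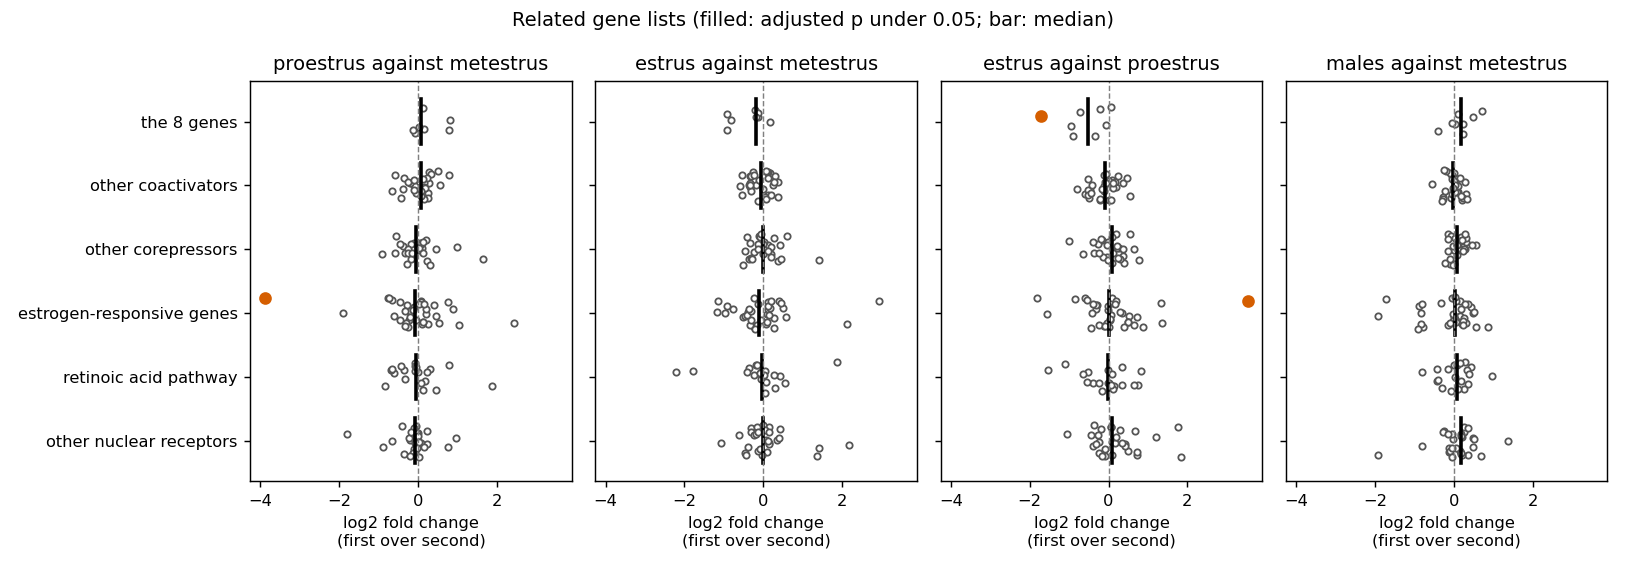
Log2 fold change (horizontal axis, first named group over second) of each gene tested in the 8-gene set and in 5 related lists (vertical axis) in 4 comparisons, with black bars at the medians and filled points where the adjusted p was under 0.05. The filled points are Esr1 in proestrus against metestrus and in estrus against proestrus, and Nr2c1 in estrus against proestrus.

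For each of the 8 genes, the 3 genes with the most similar profile over the 19 libraries were found by Pearson's r, as a description; the libraries share groups and batches. Nr2c1 was closest to Loricrin (r = 0.81), Tec and Pradc1, Ncoa3 to Dennd4b (r = 0.92), Gm10136 and Gm38178, and Rara to Zfp583 (r = 0.94), Gfra2 and Gng8. Ncoa1 was closest to Kif21b (r = 0.91), Cyfip1 and Notch3, and Ncoa2 to Jade1 (r = 0.92), Norad and Skil. The corepressor Ncor1 was closest to Homer1 (r = 0.93), Tmod2 and Phip, Nrip1 to Gm17300 (r = 0.83), Rapgef1 and Foxo6, and Greb1 to Gm37294 (r = 0.93), Plp2 and Slc48a1. No gene of the 8 was among the closest 3 of another.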

How the data were processed

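TRAP RNA sequencing gave 1 deposited table of 21749 genes by 19 libraries, used as log2 values. Per the submitters' processing notes the tools were edgeR, STAR and Salmon and the build was GRCm39, with no version or order of steps. The sources used here do not give the scaling, filters or pseudocount. The log2 unit of the authors' deposited values was read from the values themselves (-5.12 to 19.00). Depth is unknown. After the groups were fitted the values spanned 11 of 15 dimensions, so 4 directions between libraries had been removed.

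Genes at 3.32 (10 before the log) or more in at least 3 libraries were tested: 20644, or 94.9%. limma 3.58.1 (R 4.3.3, trend, robust prior) fitted group and batch to all 19 libraries, two-sided, with Benjamini-Hochberg adjustment over all tested genes and a threshold of 0.05. The fit counted 13 residual degrees of freedom where the values allow 11, and a second fit counts 11. The script was tested on simulated data. The labels do not say that libraries are separate animals, so p-values measure the spread between libraries that is left in the deposited values. The second fit does not restore the variation that was removed. The design had allowed for counts; log2 values needed no count model.

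The 8 genes and the lists were chosen with earlier results of these data known. Named were all 8 genes, list genes past the threshold or else the 2 with the smallest p in any of the 4 comparisons, and the 3 genes most like each of the 8 by Pearson's r. Pgr and Nr2c2 were named outside this rule, after their values were seen. Symbols not tested were Nr0b1, Nr0b2, Tff1, Ltf, Pdzk1, Tfap2c, Cyp26a1, Cyp26c1, Nr2e3, Nr5a1, Nr5a2, Hnf4a and Hnf4g. Alternatives covered the batch term, filter, variance prior, centring, missing directions, batches used, a replicate block and single libraries left out.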

Additional observations from a re-analysis of the deposited data

Results flagged for a closer look

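Ncor1 in Metestrus replicate 6 stood apart from the other metestrus libraries, at 11.999 against 12.34 for the next lowest of the 8. The gap was 0.557 of the whole range, above the 95% critical value of Dixon's test for 8 samples. It was 1 of 24 groups of values looked at, and chance flags about 1 in 20. The fold change of Ncor1 in males over metestrus was 0.22 with this library and 0.13 without it, and neither passed the threshold.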

How the results depend on the processing

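The fold changes of the 8 genes in 4 comparisons kept their direction and their side of the threshold in 224 of 232 alternative values with all libraries kept and in 309 of 336 with 1 library left out. The count of the 8 genes past the threshold in estrus against proestrus, 1 in the fit reported, was 2 with no batch term (Ncoa3 passed too, adjusted p = 0.0407) and 0 with the minimum required in all libraries, with the missing directions counted and with only batches 2 and 3. With no batch term it was 1 in proestrus against metestrus (Ncoa3), 1 in estrus against metestrus (Rara) and 3 over the 4 groups. With single libraries left out, it ran from 0 to 1 in estrus against proestrus. Nr2c1 passed only without Estrus replicate 2 (adjusted p = 0.0442), Ncoa3 without Estrus replicate 4 (0.0474) and Rara without Proestrus replicate 3 (0.0484). Over the 4 groups the count was 0 to 1, with 1 without Proestrus replicate 3.

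Counts of all genes were 204 in proestrus against metestrus, 18 in estrus against metestrus, 194 in estrus against proestrus and 5 in males against metestrus. In that order they were 1146, 899, 3.6e2 (to 2 digits) and 10 with no batch term, and 5, 0, 15 and 0 with the minimum in all libraries. Counting the missing directions gave 75, 0 and 52 between the stages, and only batches 2 and 3 gave 1, 0 and 0. Without trend and robust prior, 49 genes passed in estrus against metestrus and 9 in males against metestrus, and centring gave 310 in estrus against proestrus. The ranges over single libraries left out were 68 to 190, 0 to 56, 66 (without Proestrus replicate 1) to 430 (without Estrus replicate 4), and 5 to 8.

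Signs turned for small fold changes. Centring gave -0.0093 for Ncoa2 in males against metestrus. With single libraries left out, proestrus against metestrus ran from -0.38 to 0.53 for Greb1, -0.041 to 0.086 for Ncoa1, -0.037 to 0.28 for Ncoa2 and -0.33 to 0.23 for Rara. Estrus against proestrus ran from -0.094 to 0.22 for Ncoa2 and -0.19 to 0.058 for Ncor1, estrus against metestrus from -0.25 to 0.0058 for Ncoa3, and males against metestrus from -0.082 to 0.12 for Ncoa2 and -0.41 to 0.13 for Nr2c1. No pairing by the numbers in the titles of batch 4 was seen: deviations of same-numbered libraries correlated at -0.20 to 0.15, and 1 of 4 was closest to its own number. This cannot exclude a pairing, because 4 directions between libraries had been removed from the values. The replicate block on these numbers left 5 genes past the threshold in males against metestrus, 0 of them among the 8, and gave 0.031 for Nr2c1. The cause of these changes was not tested. Depth is unknown, so counting error could not be separated from the spread between libraries.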
